A study of Neurospora crassa with 84 samples.

Results

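Of the 10590 annotated genes of Neurospora crassa, 96 are described here: those whose transcripts in the wild type were at least 4 times as abundant after fertilization as before and were most abundant on day 2 of the cross. They were chosen by their levels in the wild type, in CPM (the count of a gene divided by the total of its library and multiplied by 1000000). For each day, P was the mean CPM of the 6 wild-type libraries of that day, dark and light together. B was the mean of P over days -2, -1 and 0 plus 0.5, and A the mean of P over days 1, 2, 4 and 6 plus 0.5. A member had an A/B of at least 4, a highest P of at least 10 CPM and its highest P on day 2. Because the wild-type time course chose the members, the wild-type rise, its day of highest level and every difference in level between the strains are given below as descriptions. Results that rest on a test come from within the mutant. Comparisons of light and dark in WT, whose libraries the rule averaged, are called by the same test and described, and where a member met the rule in 1 light condition only its difference is given without a p.

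The study compared the wild type (WT, mat A) with a strain that lacks ve-1 (∆ve-1, mat A), each kept in the dark or in light on a nitrogen-poor crossing agar on which protoperithecia form. The surface tissue was harvested on days -2, -1 and 0, the last just before the cross, and on days 1, 2, 4 and 6 after conidia of a wild-type mat a strain had been applied as the male parent. The 28 combinations of strain, light and day held 3 libraries each, 84 in all. The deletion was present in the unfertilized ∆ve-1 controls as well, and the male parent of every cross carried an intact ve-1, so fertilized ∆ve-1 tissue held wild-type nuclei too. The harvested layer mixes hyphae, conidia and fruiting bodies, and in bulk RNA fewer cells of a type and less RNA per cell cannot be told apart.

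The protoperithecium is the coiled female organ of N. crassa, which sends out a trichogyne to reach a male cell. Once fertilized it grows into the perithecium, a flask-shaped fruiting body whose wall thickens and darkens with melanin while ascogenous hyphae form inside it, ahead of meiosis and ascospore formation. Day 2 falls in this phase of enlargement and wall building. VE-1 is a member of the velvet family, fungal regulators that couple development to light, and the study had observed fewer fruiting bodies in ∆ve-1, above all in light.

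Each library held between 14.5 and 18.4 M counts (median 16.5 M, with M for 1000000). The ve-1 transcript was at 148 to 680 CPM in the 42 WT libraries and at 6.68 to 16.6 CPM in the 42 ∆ve-1 libraries, so every library matched its strain label. The labels of light and day cannot be checked by this transcript. Replicates of a group correlated at r = 0.94 to 0.995 on the log2 scale across genes, and each of the 84 replicate pairs differed by more than sampling noise. Some libraries stood apart for the members. Replicate 3 of WT dark day 2 differed at least 2-fold from both other replicates for 26 members, 20 of them lower and 6 higher. The same count was 22 in ∆ve-1 dark day 0 replicate 3, 21 of them higher, 21 in ∆ve-1 dark day -2 replicate 3, 18 of them lower, and 20 in WT light day -1 replicate 2, all lower. Without WT dark day 2 replicate 3 the rule chose 104 genes, 94 of them among the 96. Perithecial tissue was checked by 4 markers: per-1 (NCU03584), the polyketide synthase of perithecial melanin, which reached 5602 CPM on day 4 in WT with an A/B of 74, the regulator fsd-1 (NCU09915), with an A/B of 9.33, and T (NCU00776) and mat A-1 (NCU01958), with an A/B of 0.799 and 0.817.

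In WT the members were at low levels until the cross and high from the first day after it. The median member stood at 6.18 CPM on day 0, 45.6 on day 1, 93.6 on day 2, 71.5 on day 4 and 49.3 on day 6 in the dark. The same course in light ran over 3.87, 66.6, 104, 56.6 and 34.9 CPM. A/B ran from 4.13 to 94.7 with a median of 10.2, and P on day 2 from 10.2 to 5142 CPM with a median of 103. For 91 members the lowest of the 6 WT libraries of day 2 was above the highest of the 18 WT libraries before fertilization, as it was for 9.21% of the 9701 genes kept by the filter on low counts; the rule used these values. The day-2 maximum was seldom a sharp one: on day 1 the median member stood at 50% of its day-2 level, on day 4 at 61.6% and on day 6 at 40.3%. The next highest day was day 4 for 49 members, day 1 for 36 and day 6 for 11, and for 18 members it came within 10% of day 2. At the edges of the rule, use-1 (NCU07853) and tam-2 (NCU05843) entered with an A/B of 4.13 and 4.15, while NCU05351 (3.92) and NCU07477 (3.9) stayed out. NCU16820 and NCU02869 entered with a highest P of 10.2 CPM, and NCU05176 (9.91) and NCU00746 (9.46) stayed out. The day-2 level of met-24 (NCU07919) exceeded the next highest day 1.01 times and that of NCU07181 1.03 times, whereas NCU05978 and NCU07787, each at 0.997 times, missed day 2.

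**Figure D1:**
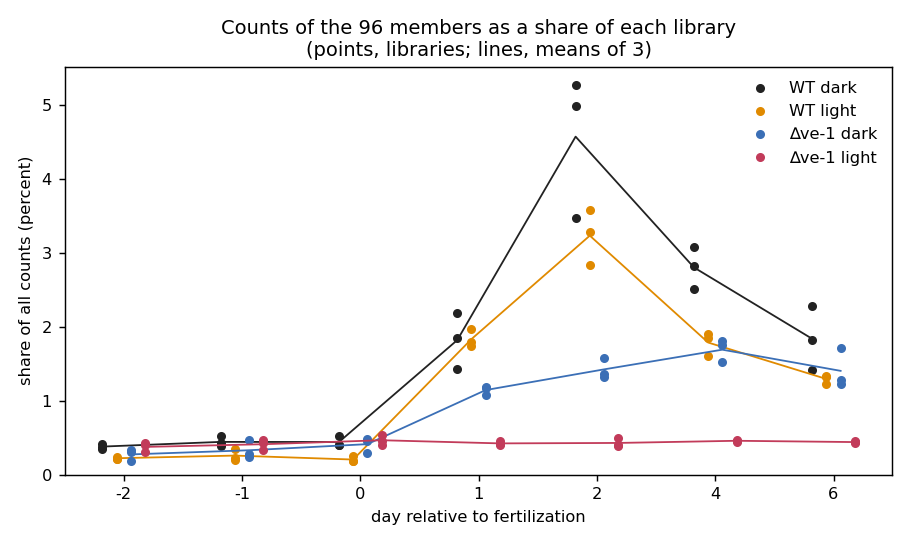
Counts of the 96 members as a percentage of all counts in each of the 84 libraries (points), with the means of 3 libraries joined by lines, against the day of the cross. In WT dark the mean share was 4.58% on day 2, in WT light 3.24%, in ∆ve-1 dark 1.43% and in ∆ve-1 light 0.431%, where it stayed between 0.377% and 0.468% on all 7 days.

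Together the members took 0.444% ± 0.0662 (SD, n = 3) of all counts in WT dark on day 0 and 4.58% ± 0.966 on day 2. In WT light the share was 0.206% ± 0.0366 and 3.24% ± 0.372. In ∆ve-1 dark it was 0.415% ± 0.106 on day 0, 1.43% ± 0.132 on day 2 and 1.7% ± 0.152 on day 4, its highest. In ∆ve-1 light it was 0.468% ± 0.0637 on day 0 and 0.431% ± 0.0603 on day 2. The 3 members of highest P on day 2, NCU14176, tpd-1 (NCU00175) and NCU05236, took much of these shares. Without them the share went from 0.219% on day 0 to 2.73% on day 2 in WT dark, from 0.137% to 2.49% in WT light, from 0.161% to 0.814% in ∆ve-1 dark and from 0.108% to 0.126% in ∆ve-1 light.

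Most members had no known product. Names paired with the gene identifiers in the study's tables gave a product other than a hypothetical or unspecified one for 29 of the 96, and RefSeq gave a symbol for 7. The named products included laccases and other copper oxidases, enzymes of the cell wall and of polysaccharides, enzymes and transporters of metabolism, secreted hydrolases and a pair of regulators. NCU15647 was named an rRNA, and 94 of the 96 members were annotated as protein coding. Members lay on all 7 chromosomes, from 0.59% of the genes of chromosome V to 1.58% of those of chromosome VII (assembly NC12). Of the 96, 23 lay next to another member in annotation order, in 11 runs, while members made up 0.907% of all genes. The longest run held 3 genes, NCU05866, NCU17282 and NCU17283, on chromosome VII from 4106337 to 4111130. The other runs were pairs, among them NCU05043 with the bilirubin oxidase gene bro-1 (NCU05042) on chromosome VI, NCU07352 with the alpha-glucuronidase gene gh67-1 (NCU07351) on chromosome I, and NCU05842 with the ammonium transporter gene tam-2 (NCU05843) on chromosome VII.

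The first question put to the mutant was whether it raised these genes after fertilization in the dark. It did for nearly all of them. Against the mean of days -2 to 0, the mean of days 1 to 6 was called higher (edgeR's quasi-likelihood test, Benjamini-Hochberg adjusted p under 0.05 and a log2 change over 1) for 91 of the 96 members, against 13.8% of the 9701 genes tested. All 96 members had passed the filter on low counts. The median log2 rise was 3.55, against -0.03 over all genes tested. It was 3.32 when counts were summed over the 9 libraries before and the 12 after fertilization, with the 1 member that had no count before taken at the floor of 3 counts. From day 0 to day 2 alone, 83 members were called higher, against 10.1% of all genes tested, with a median log2 change of 3.18. The levels reached were nevertheless lower than in WT. On day 2 the median member of ∆ve-1 dark stood at 37.3% of its WT dark level (quartiles 23.8% and 63.4%), and 88 of 96 had a lower mean. For 69 members every ∆ve-1 dark library was below every WT dark library, as for 21.9% of all genes tested. Without replicate 3 of all groups, 90 members were called for the rise in the dark.

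The day of the maximum in WT was fixed by the rule, and that in ∆ve-1 dark was spread over several days. In ∆ve-1 dark 25 members had their highest mean on day 2, 47 on day 4, 14 on day 6, 9 on day 1 and 1 on day -1. Within ∆ve-1 dark, 11 members rose from day 1 to day 2, against 1.43% of all genes tested, and 10 rose from day 2 to day 4, against 2.27%. Leaving out a replicate number from all groups changed these counts: the first was 4 without replicate 1 and 7 without replicate 2, and the second 5 without replicate 3. The first set included lacc-3 (NCU09279) with a log2 change of 2.77 ± 0.47 (SE) and adjusted p = 4.08e-05, and all 3 genes of the chromosome VII run. The second set included bro-1 (NCU05042) with 1.08 ± 0.273 and adjusted p = 0.00967, its neighbour NCU05043 with 1.94 ± 0.399 and adjusted p = 0.000747, and the laccase gene lacc (NCU04528) with 1.78 ± 0.318 and adjusted p = 9.05e-05.

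In light, most members stayed near their unfertilized level in ∆ve-1. The same contrast called 31 members higher, against 6.71% of all genes tested, and 1 lower, against 2.02%. All 31 were among the 91 that rose in the dark. For NCU15647, NCU02869, NCU08084 and NCU09828, each with no count in at least 1 ∆ve-1 group, the fit gave no usable error (SE over 3). DESeq2 called 2 of these 4. The median log2 rise was 0.78, against 0.00 over all genes tested, and 0.64 from summed counts with floors for the 4 members that had no count before the cross. With no fold threshold 52 members passed, 48 higher and 4 lower, and with day 0 alone as the baseline 21 passed. From day 0 to day 2 alone, 5 members were called higher, against 1.53% of all genes tested, and 2 lower, against 0.247%, which left 3 without replicate 1 and 2 without replicate 2, all of these higher. On day 2 the median member was at 5.2 CPM in ∆ve-1 light, against 104 in WT light and 41.2 in ∆ve-1 dark. It stood at 3.04% of its WT light level (quartiles 1.3% and 9.59%), and for 90 of the 96 members no ∆ve-1 light library reached the lowest WT light library, as for 35.1% of all genes tested.

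**Figure D2:**
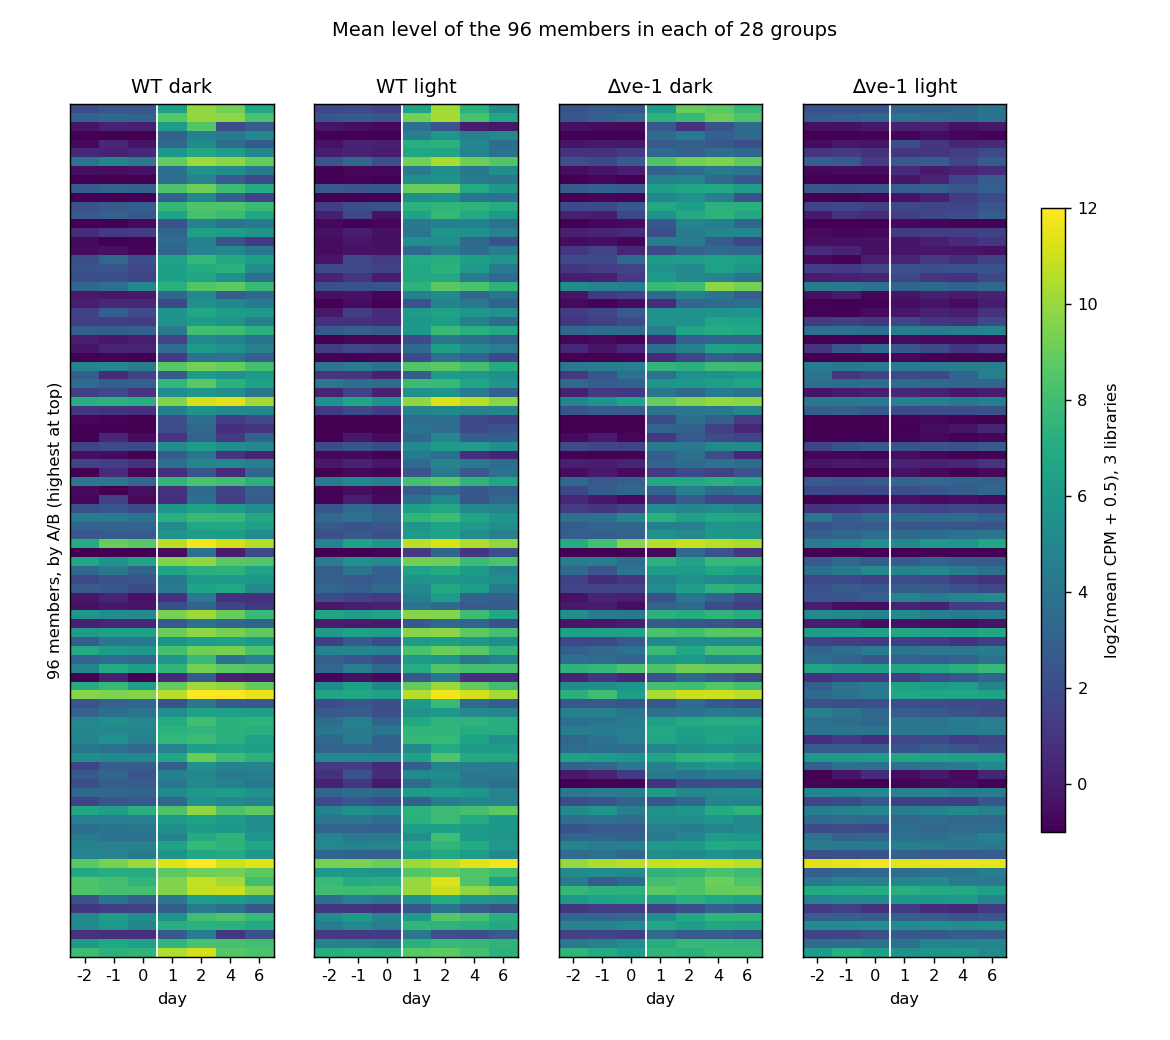
Mean levels, as log2 of the mean CPM of 3 libraries plus 0.5, of the 96 members (rows, highest A/B at the top) on each day (columns) in WT dark, WT light, ∆ve-1 dark and ∆ve-1 light, with a white line at fertilization. Nearly all rows brighten after the line in the first 3 panels, and in ∆ve-1 light, where 31 members were called higher, most rows keep their colour.

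The rise itself differed between light and dark in the mutant. The interaction called 64 members, all with the smaller rise in light, against 6.48% of all genes tested, and the median log2 difference was -2.26, against 0.02 over all genes. Without replicate 3 of all groups 58 were called. For 15 other members the fit gave no usable error (SE over 3), 14 of which had no count in at least 1 ∆ve-1 group. The remaining member, NCU05866, had counts in every ∆ve-1 group and nearly equal fitted rises in dark and light. Its SE ran high because its F statistic, from which the SE was derived, was very small. DESeq2 called 11 of these 15 and 76 members in all. On day 2, 85 members were lower in light than in dark in ∆ve-1, against 11.3% of all genes tested, with a median log2 difference of -3.40. In WT 78 of these 85 were not called between light and dark on the same day. The difference between the strains in this light effect, a contrast chosen after the data had been seen, was called for 80 members, 77 lower and 3 higher in ∆ve-1, against 9.42% and 2.09% of all genes tested. It is given as a description, since it takes in the WT libraries of day 2, by which the members were chosen.

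**Figure D3:**
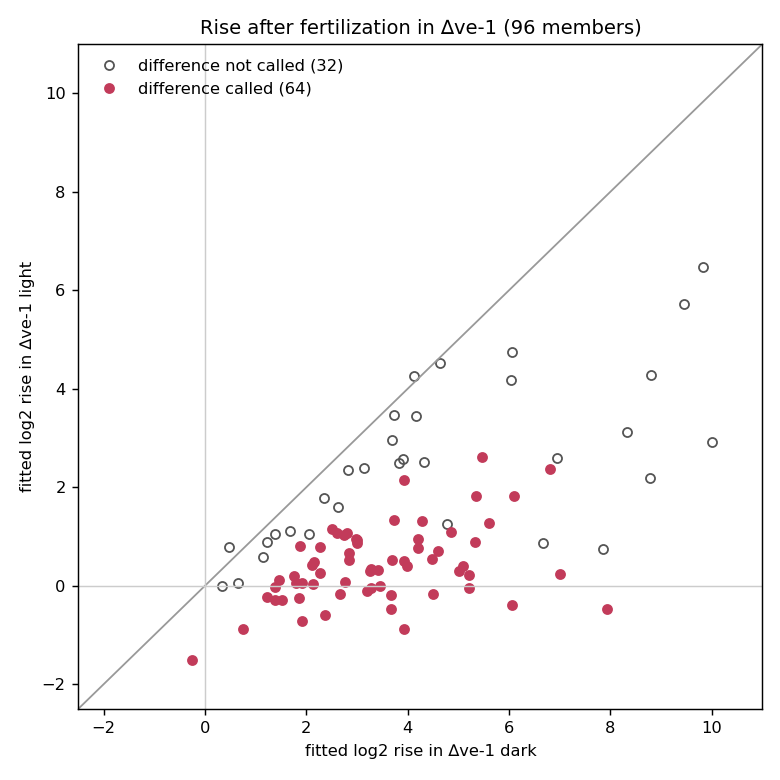
Fitted log2 rise from days -2 to 0 to days 1 to 6 in ∆ve-1 light (vertical) against ∆ve-1 dark (horizontal) for the 96 members, 1 point each, with the line of equal rise. The 64 members called for the difference (filled) lie below the line, and the 32 not called (open) include members with no count in whole groups, whose fitted values depend on the prior count.

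Transcripts of conidiation were also compared between light and dark in the mutant. The 8 conidial marker genes (con-6, con-8, con-10, eas, ccg-1, fl, csp-1 and acon-3) summed to 69914 to 93571 CPM in ∆ve-1 light on day 2, to 31428 to 43828 in ∆ve-1 dark, to 17112 to 21135 in WT light and to 18318 to 22099 in WT dark. None of the 8 was at 0 in any of these libraries. In light against dark on day 2 in ∆ve-1, con-6 and con-10 were called higher and ccg-1 lower, and the median log2 difference of the 8 was 1.04. Before fertilization WT light was also high, at 53529.7 to 80752 CPM on day 0, close to the 58566 to 78024 CPM of ∆ve-1 light, and was lower after the cross. Close sums do not mean like levels of each marker, since different genes can carry the sum. On day 0 con-10 had 23627, 42436 and 9289 counts in WT light and 400970, 272625 and 197510 in ∆ve-1 light. The part of the differences in conidial transcripts in the members' values was not tested.

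Of the oxidases, the laccases oxidize phenolic compounds with the help of copper, and fungi use such enzymes in pigment formation and in cell wall hardening. The member with the highest A/B, 94.7, was lacc-3 (NCU09279, chromosome VII). On day 2 it stood at 1151, 511 and 1231 CPM in WT dark, at 1381, 1206 and 906 in WT light, at 473, 463 and 572 in ∆ve-1 dark and at 5.4, 10.6 and 8.45 in ∆ve-1 light. The mutant in light was thus below all other libraries of that day by a wide margin, and its libraries of days -2 to 0 had held 3.33 to 5.94 CPM. The log2 rise of lacc-3 in ∆ve-1 was 5.60 ± 0.311 in the dark (adjusted p = 1.1e-23) and 1.28 ± 0.271 in light (adjusted p = 7.9e-05), and the difference of -4.32 ± 0.379 had an adjusted p of 2.07e-14.

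The laccase gene lacc (NCU04528) kept its WT level better in the dark. It was at 371, 269.9 and 435 CPM in WT dark on day 2 and at 268, 266 and 246 in ∆ve-1 dark, and went on to 585, 789 and 1148 CPM in ∆ve-1 dark on day 4, when WT dark held 365, 491 and 425. In ∆ve-1 light it was at 7.31, 8.38 and 13.9 CPM on day 2. The log2 rise of lacc was 3.93 ± 0.197 in ∆ve-1 dark (adjusted p = 9.94e-26), and the value of -0.88 ± 0.175 in light did not pass the fold threshold. Bilirubin oxidase-1, bro-1 (NCU05042), another copper oxidase by its name, was at 84.3, 87.4 and 44.7 CPM in WT dark on day 2, 20.8, 16.7 and 15.1 in ∆ve-1 dark and 4.59, 6.02 and 3.21 in ∆ve-1 light. All 3 oxidase genes were called for the difference of their rise between light and dark, as were 66.7% of all 96 members. In WT on day 2 the log2 difference between light and dark of lacc-3 (NCU09279) was 0.30 ± 0.439 and did not pass the test (adjusted p = 0.761). That of lacc, which met the rule in light only, was 0.23. That of bro-1, which met it in dark only, was -0.07. The values of lacc and bro-1 are descriptions, since the choice of members took part in them.

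Among all 96 members 94.8% rose in ∆ve-1 dark and 32.3% in ∆ve-1 light, against 13.8% and 6.71% of all genes tested. Enzymes and proteins of the cell wall and of polysaccharides numbered 7, and all 7 rose in ∆ve-1 dark, 2 of them in ∆ve-1 light. The strongest by A/B (81.6) was ce4-3 (NCU05212), which the study's tables name a glycosyl hydrolase and whose symbol is that of a carbohydrate esterase family that removes acetyl groups from chitin and other polymers. It was at 950.4, 854 and 1186 CPM in WT dark on day 2, at 1271, 1302 and 1169.6 in WT light, at 200.2, 217 and 237 in ∆ve-1 dark and at 9.72, 18.6 and 8.32 in ∆ve-1 light. On day 2 no group of ∆ve-1 overlapped WT of the same light condition. Its rise in ∆ve-1 dark was 5.33 ± 0.213 (adjusted p = 2.15e-30), its light value of 0.88 ± 0.179 did not pass the fold threshold, and the difference was -4.45 ± 0.257 (adjusted p = 1e-21). The ∆ve-1 dark level of ce4-3 rose further from day 2 to day 4 (1.32 ± 0.311, adjusted p = 0.00443).

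By level per kb of gene span, gh61-15 (NCU07974), of a family of copper enzymes that cleave polysaccharide chains by oxidation, was the fifth highest member, at 1063 CPM per kb on day 2. Its libraries of that day were at 2229, 1885 and 2736 CPM in WT dark, 2715, 2563 and 2488 in WT light, 699, 612 and 998 in ∆ve-1 dark and 20.4, 27.5 and 24.7 in ∆ve-1 light. It rose in ∆ve-1 dark by 3.99 ± 0.23 on the log2 scale (adjusted p = 5.5e-23), and the value in light was 0.40 ± 0.201. The chitin binding protein gene NCU10651 was at 561, 565 and 537 CPM in WT dark on day 2, 93.3, 102 and 100 in ∆ve-1 dark and 5.9, 9.62 and 5.3 in ∆ve-1 light, with a rise of 3.93 ± 0.157 in the mutant's dark libraries (adjusted p = 2.44e-30) and 0.51 ± 0.148 in light. In WT it was already at 502, 165 and 322 CPM in dark and 492, 563 and 549.6 in light on day 1.

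Chitin, the polymer of N-acetylglucosamine in fungal walls, is made by chitin synthases, of which chs-6 (NCU05268) was a member. It was at 224, 253 and 238 CPM in WT dark on day 2, 191, 206 and 222 in WT light, 66.2, 60.1 and 90 in ∆ve-1 dark and 3.38, 3.1 and 2.84 in ∆ve-1 light. It was low in ∆ve-1 light already before the cross, at 0.708 to 1.96 CPM over days -2 to 0, where WT dark held 17.9 to 66.5 and WT light 3.3 to 51.3. It was called higher after fertilization in ∆ve-1 light, by 1.07 ± 0.321 (adjusted p = 0.00434), and in ∆ve-1 dark by 2.61 ± 0.255 (adjusted p = 1.89e-13). The gene lyz (NCU00701), for an N,O-diacetylmuramidase that cleaves the sugar backbone of bacterial walls, was at 449.6, 502 and 269 CPM in WT dark on day 2, 181, 268 and 182 in WT light, 63.2, 56.5 and 63.3 in ∆ve-1 dark and 7.1, 13.7 and 12 in ∆ve-1 light. Its log2 rise was 3.19 ± 0.156 in ∆ve-1 dark (adjusted p = 2.55e-26) and -0.10 ± 0.143 in light (adjusted p = 0.599), with a difference of -3.29 ± 0.205 (adjusted p = 1.65e-20).

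The glycosyltransferase gene gt2-3 (NCU09875), named for a capsule polysaccharide synthase, had almost no counts before the cross. In WT it had no count in 17 of the 18 libraries before fertilization and was at 41.7, 32.5 and 6.46 CPM in dark and 108, 32.4 and 17.5 in light on day 2. In ∆ve-1 dark 3 counts were found in the 9 libraries before the cross and 3395 in the 12 after it, a ratio of CPM of 840.5 (95% counting interval 287 to 4078). In ∆ve-1 light 2 counts became 459, a ratio of 176 (48.3 to 1454), so that this gene rose in light as well, though to no more than 8.21 CPM in any library. Its ∆ve-1 dark libraries of day 2 spread widely, at 23.7, 3.58 and 54 CPM. NCU08249, a gene for a hypothetical protein on chromosome III, had the same order in these libraries, with 46.6, 6.35 and 100.5 CPM.

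Enzymes and transporters of metabolism numbered 11, of which 9 rose in ∆ve-1 dark and 4 in ∆ve-1 light. Among all 96 members the shares were 94.8% and 32.3%, and among all genes tested 13.8% and 6.71%. The gene tpd-1 (NCU00175), named terpenoid-1, had the highest day-2 level per kb of all members, 2386 CPM per kb. It was at 7526, 7948 and 4070 CPM in WT dark on day 2, 3478, 4062 and 2522 in WT light, 1760.3, 1661 and 2519 in ∆ve-1 dark and 127, 91.1 and 87.1 in ∆ve-1 light. Before the cross it was lower in light than in dark in WT, with a log2 difference of -2.97 ± 0.24 (adjusted p = 2.55e-16), with 758, 753 and 826 CPM on day 0 in dark against 63, 119 and 89.3 in light. It rose in both ∆ve-1 conditions, by 3.69 ± 0.242 in dark (adjusted p = 2.16e-20) and 2.96 ± 0.236 in light (adjusted p = 1.28e-15), and the difference of -0.73 ± 0.299 missed the threshold (adjusted p = 0.0561). In ∆ve-1 light tpd-1 was at 15.1 to 24.9 CPM on day 0.

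Glucose dehydrogenase-2, gld-2 (NCU08228), which by its name oxidizes glucose, was at 1637, 1216 and 2501 CPM in WT dark on day 2, 2593, 2680.1 and 2328 in WT light, 335, 355 and 295 in ∆ve-1 dark and 19.2, 32.8 and 52.3 in ∆ve-1 light. Its level was soon lower in WT light, at 320.1, 314 and 387 CPM on day 4, when WT dark held 1189, 1336 and 983. Its rise in ∆ve-1 dark was 5.20 ± 0.295 (adjusted p = 2.77e-23) and its light value 0.22 ± 0.239. Alternative oxidase-5, aod-5 (NCU03938), of a family of mitochondrial enzymes that bypass part of the respiratory chain, had replicates close to each other. It was at 828, 773 and 1032 CPM in WT dark on day 2, 845, 864 and 866 in WT light, 261, 254 and 277 in ∆ve-1 dark and 90.8, 91.7 and 85.8 in ∆ve-1 light, where day 0 had held 81.5, 74.9 and 101. The rise of aod-5 was 2.12 ± 0.0902 in ∆ve-1 dark (adjusted p = 3.94e-29) and 0.43 ± 0.0851 in light, under the fold threshold.

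Other genes of this group had the same order of levels. Ferric reductase-2, fer-2 (NCU00023), which by its name reduces iron ahead of uptake, was at 1644, 1439 and 2274 CPM in WT dark on day 2, 305, 324 and 392 in ∆ve-1 dark and 115, 109 and 143 in ∆ve-1 light. Carbonic anhydrase-2, cah-2 (NCU04778), which hydrates carbon dioxide, was at 71.1, 53.1 and 113 CPM in WT dark, 45.8, 45.5 and 41.8 in ∆ve-1 dark and 7.7, 3.73 and 7.34 in ∆ve-1 light. The choline dehydrogenase gene bet-2 (NCU04938), of the pathway from choline to betaine, was at 47.1, 40.7 and 52.9 CPM in WT dark, 11.4, 14.3 and 9.8 in ∆ve-1 dark and 0.273, 0.807 and 0.308 in ∆ve-1 light. Each of the 3 was called for a smaller rise in light than in dark in ∆ve-1, by log2 differences of -1.41 ± 0.177, -2.11 ± 0.225 and -2.85 ± 0.901 (adjusted p = 2.79e-09, 2e-11 and 0.0117).

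The ammonium transporter gene tam-2 (NCU05843) was less far below its WT level in the dark, at 203, 193 and 198 CPM in ∆ve-1 against 314, 327 and 298 in WT on day 2. In ∆ve-1 light it was at 30.8, 16 and 39.3 CPM and was called higher than before the cross by 1.07 ± 0.172 (adjusted p = 6.84e-07). The FAD binding protein gene NCU07619 was the 1 member called lower after fertilization in ∆ve-1 light, by 1.50 on the log2 scale (-1.50 ± 0.191, adjusted p = 2.82e-09). It was at 28.2, 28.8 and 16.4 CPM on day -2, 4.46, 8.49 and 14.9 on day 0 and 4.59, 3.6 and 9.56 on day 2, so that the means were already lower on day 0 than on day -2. In ∆ve-1 dark its value of -0.25 ± 0.182 was not called (adjusted p = 0.243).

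The secreted hydrolases were aspartyl protease-17 (apr-17, NCU04205), lipase-9 (lip-9, NCU09416) and an extracellular deoxyribonuclease (NCU09525), which degrade protein, fats and DNA. On day 2 apr-17 was at 699, 404 and 612 CPM in WT dark, 117, 74.3 and 110.4 in ∆ve-1 dark and 14.1, 19.2 and 18.7 in ∆ve-1 light. The values of lip-9 were 30.2, 30 and 29.2 CPM, 11.2, 12.2 and 11.8, and 1.04, 0.559 and 0.37 in the same groups. All 3 rose in ∆ve-1 dark and were called for a smaller rise in light, as were 94.8% and 66.7% of all 96 members. From day 2 to day 4 in ∆ve-1 dark, apr-17 rose further by 1.58 ± 0.379 (adjusted p = 0.00557) and NCU09525 by 1.33 ± 0.25 (adjusted p = 0.000195).

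A pair of regulators belonged to the members. Phytochromes are red-light photoreceptors that work as histidine kinases, and phy-2 (NCU05790) encodes the second of the phytochromes of N. crassa. It was at 69.2, 70 and 78.7 CPM in WT dark on day 2, 80.1, 91.9 and 76.1 in WT light, 23.6, 17.1 and 25 in ∆ve-1 dark and 9.5, 11.1 and 7.77 in ∆ve-1 light. It rose in ∆ve-1 light by 1.79 ± 0.128 (adjusted p = 2.01e-17), from 2.64, 3.86 and 3.88 CPM on day 0, and in dark by 2.35 ± 0.126 (adjusted p = 1.7e-24), and the difference of -0.56 ± 0.173 did not reach the fold threshold. NCU16491, annotated as transcription factor-20 and listed under the symbols tcf-2 and tcf-20 in the study's tables, was at 307, 293 and 211 CPM in WT dark, 193, 183 and 159 in WT light, 118, 81 and 171 in ∆ve-1 dark and 16, 12 and 17.1 in ∆ve-1 light. It was called for a smaller rise in light than in dark (-2.12 ± 0.293, adjusted p = 3.78e-08).

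**Figure D4:**
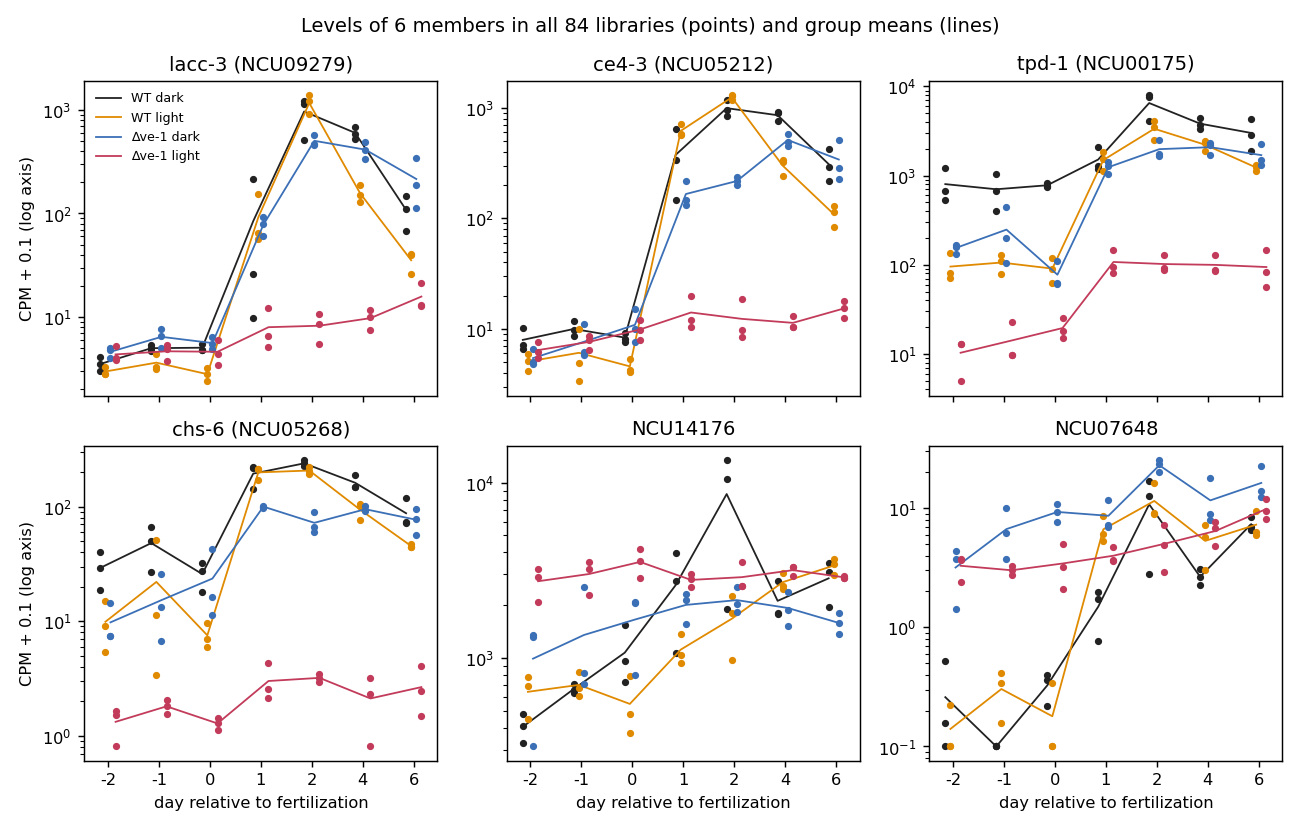
Levels of 6 members in all 84 libraries (points, CPM plus 0.1 on a log axis) by day, with group means joined by lines, for lacc-3 (NCU09279), ce4-3 (NCU05212), tpd-1 (NCU00175), chs-6 (NCU05268), NCU14176 and NCU07648. In the first 4 the ∆ve-1 light points of day 2 lie below all others of that day, while NCU14176 is at 2586 to 3531 CPM there and NCU07648 is higher in ∆ve-1 dark, at 20.2 to 25.1 CPM, than in WT dark, at 2.72 to 16.7.

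Among the members with no known product were some of the most abundant and the most changed. NCU06555 (chromosome IV) was at 921, 942 and 1402 CPM in WT dark on day 2, 1146, 1819 and 996 in WT light, 526, 749 and 455 in ∆ve-1 dark and 1.97, 13 and 4.07 in ∆ve-1 light. Its rise of 7.00 ± 0.506 in ∆ve-1 dark (adjusted p = 1.56e-18) against 0.24 ± 0.412 in light gave a difference of -6.75 ± 0.605 (adjusted p = 4.26e-14). NCU05236 was at 3617, 3814 and 2554 CPM in WT dark on day 2, 2047, 2237 and 1707 in ∆ve-1 dark and 92, 61 and 34.7 in ∆ve-1 light, with 1631 CPM per kb in WT. NCU05043, the neighbour of bro-1, was at 77.8, 53.2 and 68.2 CPM in WT dark, 26.2, 25.3 and 24.5 in ∆ve-1 dark and 2.02, 5.09 and 3.51 in ∆ve-1 light, and its rise differed by -6.45 ± 0.387 between light and dark in ∆ve-1 (adjusted p = 4.11e-21). In ∆ve-1 light it was at 11.6, 13.1 and 6.67 CPM on day 0 and was called lower on day 2 (-1.43 ± 0.428, adjusted p = 0.0466). This call was lost when replicate 1, 2 or 3 was left out of all groups.

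NCU07252 and NCU05320 completed the 4 largest differences of rise among the members called, with -5.26 ± 0.357 (adjusted p = 6.26e-19) and -8.41 ± 1.66 (adjusted p = 7.26e-05). NCU05320 was at 14.9, 6.11 and 19.8 CPM in ∆ve-1 dark on day 2 and at 0, 0.186 and 0.0617 in ∆ve-1 light. In ∆ve-1 dark it held 2 counts in 9 libraries before and 1249 in 12 after the cross, a ratio of 464 (95% counting interval 128 to 3834), so that its fitted values depend on the prior count. NCU16705 and NCU02869 were also almost without counts before the cross. NCU16705 had 1 count before and 2457 after in ∆ve-1 dark, and 1 and 16 in ∆ve-1 light, a ratio of 12.2 (1.9 to 513). NCU02869 had 0 counts before and 962 after in ∆ve-1 dark, at least 238-fold higher against the floor of 3 counts over the 9 libraries.

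The 3 neighbours on chromosome VII rose in both light conditions of ∆ve-1. NCU05866 was at 122, 64.3 and 56.6 CPM in WT dark on day 2, 65.2, 60.3 and 30.5 in WT light, 31.1, 16.3 and 19.9 in ∆ve-1 dark and 2.78, 2.61 and 0.555 in ∆ve-1 light, with 0 to 0.257 CPM in the 9 libraries of ∆ve-1 light before the cross. Its log2 rise was 4.63 ± 0.243 in ∆ve-1 dark and 4.52 ± 0.365 in light (adjusted p = 7.31e-25 and 2.39e-15). In summed counts, 14 counts became 400 in ∆ve-1 light, a ratio of 21.9. NCU17282 went from 1 count to 60, a ratio of 45.9 (7.93 to 1843), and NCU17283 from 0 to 24, at least 6.12-fold higher. In WT before fertilization all 3 were lower in light than in dark, by -2.27 ± 0.314, -5.16 ± 0.766 and -3.82 ± 0.714 on the log2 scale (adjusted p = 8.25e-09, 8.91e-08 and 8.63e-06).

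A few members went against the rest. NCU14176, of unspecified product, was at 10518, 13399 and 1915 CPM in WT dark on day 2, 2245, 1803 and 975 in WT light, 2026, 1842 and 2549.8 in ∆ve-1 dark and 3531, 2586 and 2559 in ∆ve-1 light. In ∆ve-1 light it was at 2094 to 4181 CPM over all 7 days, before the cross as well as after it. Its rise in ∆ve-1 dark, 0.66 ± 0.235, did not reach the fold threshold. NCU07648 was at 16.7, 12.6 and 2.72 CPM in WT dark and 23.2, 25.1 and 20.2 in ∆ve-1 dark on day 2, 214% of the WT mean, and in ∆ve-1 it was already at 10.8, 9.18 and 7.62 CPM in the dark on day 0, where WT held 0.12 to 0.295. NCU12052 likewise stood at 77, 102 and 119 CPM in ∆ve-1 dark on day 0, against 5.78 to 9.07 in WT, and was not called higher after the cross (0.48 ± 0.239, adjusted p = 0.076). NCU01735, NCU07181, NCU08337 and NCU05862 had the smallest called rises in ∆ve-1 dark, 1.15 ± 0.136, 1.22 ± 0.185, 1.22 ± 0.312 and 1.38 ± 0.305. In ∆ve-1 light the smallest called rises were those of NCU09193 (1.02 ± 0.12), NCU07648 (1.04 ± 0.263) and NCU09147 (1.05 ± 0.335).

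Light and dark were then compared in WT, where most members did not pass the test. On day 2, 5 members were called higher in light, against 2.48% of all genes tested, and 7 lower, against 1.19%, and the median log2 difference was -0.06. Applied to WT dark alone the rule held for all 7 of the lower ones and applied to WT light alone for none of them, while 3 of the 5 higher ones (NCU05839, NCU08173 and NCU09525) met it in light only. The choice of members thus took part in these 10 differences, which are given as descriptions. NCU02197 and NCU08533 met the rule in both conditions, NCU08533 in the dark only through its day-2 replicate 3. Without replicate 1 of all groups 7 members were called, and without replicate 2, 4. Without the single library WT dark day 2 replicate 3, 18 members were called, 9 higher and 9 lower, including all 12. The 12 were all those called, and 4 of them (NCU01010, NCU08735, gh67-1 and NCU09525) were named after their values had been seen.

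The largest difference was that of NCU09865 (chromosome VI), at 338, 764 and 4.65 CPM in WT dark on day 2 and 4.28, 4.52 and 5.94 in WT light, with a log2 difference of -6.27. Replicates 1 and 2 of the dark were thus far above light, and replicate 3 was not. Uricase-1, use-1 (NCU07853), which opens the ring of uric acid in purine breakdown, showed the same split with 2584, 3819 and 474 CPM in dark and 412, 467 and 413 in light (-2.43). So did gh67-1 (NCU07351), which removes glucuronic acid from xylan, with 1176, 1349 and 203 CPM in dark and 269, 240 and 198 in light (-1.97). NCU14176 (-2.38) and NCU01812, at 26.2, 36.8 and 3.81 CPM in dark and 3.85, 2.92 and 5.38 in light (-2.49), had it as well. The remaining lower ones were NCU01010, at 268, 275 and 103 CPM in dark and 53.7, 58.1 and 50.9 in light, and NCU08735, at 51.1, 60.8 and 27.5 in dark and 23.5, 25.6 and 17 in light. Dark replicate 3 was again the lowest of the dark libraries, and the dark libraries of both genes stayed above all light ones.

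Of the 5 members higher in light, NCU05839 differed most, at 6.32, 7.8 and 38.1 CPM in WT dark and 51.5, 132 and 472 in WT light on day 2, a log2 difference of 3.70. In both ∆ve-1 conditions it was at 1.76 to 12.1 CPM on all days and was not called after fertilization. NCU08533 followed, at 3.1, 2.87 and 45 CPM in dark and 18.8, 52.8 and 148 in light (2.18). Since it met the rule in the dark only through replicate 3, its difference is a description as well. It was the 1 of the 5 that was not lower in light in ∆ve-1 on day 2, at 18.3, 14.4 and 15.9 CPM in dark and 16.4, 34.6 and 14.8 in light. NCU02197, named for a riboflavin aldehyde-forming enzyme, was at 34.7, 24 and 56.3 CPM in dark and 145, 105 and 246 in light (2.13 ± 0.563, adjusted p = 0.00966), and the dark and light libraries did not overlap. The gene ecd-2 (NCU08173), named for early conidial development, was at 96.5, 86.5 and 91.6 CPM in dark and 188, 302 and 218 in light, and NCU09525 at 119, 88.8 and 155 in dark and 236, 319 and 206 in light.

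**Figure D5:**
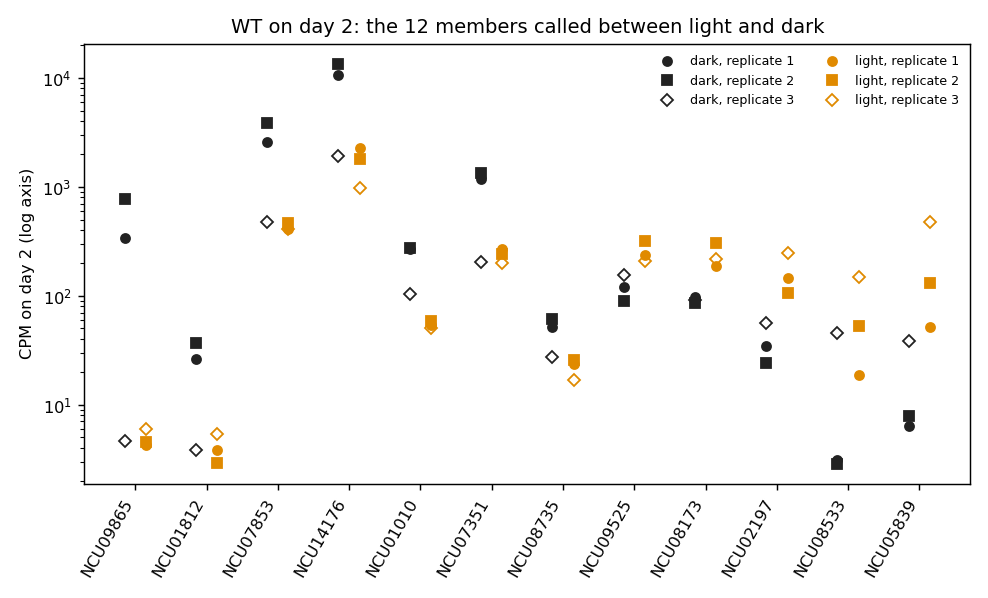
CPM on day 2 in the 3 WT dark (black) and 3 WT light (orange) libraries, on a log axis, of the 12 members called between light and dark, ordered by their log2 difference from -6.27 to 3.70. Open diamonds are replicate 3, whose dark library lies nearest of the dark libraries to the light mean for 11 of the 12, all but NCU08173.

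On the other days after fertilization the differences between light and dark in WT are again given as descriptions, since the rule took in these libraries as a mean. On day 1, 20 members were called higher in light, against 6.74% of all genes tested, and 2 lower, against 1.81%, though only 5 calls were left without replicate 2. On day 4, 2 were higher and 9 lower, against 8.68% and 0.856% of all genes tested, and on day 6, 4 higher and 10 lower, against 3.48% and 0.67%. Without replicate 2, 4 calls were left on day 4 and 1 on day 6, and without replicate 1, 5 on day 6. The median log2 difference of the members was 0.47 on day 1, -0.06 on day 2, -0.42 on day 4 and -0.44 on day 6, and 0.03 to 0.05 over all genes on these days. Tested as a change of the step from day 1 to day 2, light against dark, 4 members were called, all with the smaller step in light, against 0.34% of all genes tested. At most 2 of these calls were left when replicate 1, 2 or 3 was left out of all groups, and 10 were called without WT dark day 2 replicate 3. From day 2 to day 4, 8 members had a lower step in light, against 0.443% of all genes tested, and 4 a higher one, against 2.8%, with 3 calls left without replicate 1 and 1 without replicate 2. Of the 8, lacc-3 (NCU09279, -2.17 ± 0.629) and ce4-3 (NCU05212, -1.79 ± 0.436) met the rule in both light conditions, and the other 6, gld-2 (NCU08228) and NCU09525 among them, in light only. In WT dark lacc-3 was still at 591, 682 and 526 CPM on day 4, and in WT light at 188, 128 and 152. The days of highest level, which the rule used only as a mean over light and dark, were day 2 for 75 members and day 4 for 18 in WT dark, and day 2 for 77 and day 1 for 14 in WT light.

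Before fertilization, part of the members were already lower in light in WT. Over days -2 to 0, 30 members were lower in light than in dark, against 8.62% of all genes tested, and 4 higher, against 7.03%, with a median log2 difference of -0.66, against 0.01 over all genes. Of the 30, 17 met the rule in both light conditions, among them tpd-1 (NCU00175), chs-6 (NCU05268, -1.49 ± 0.258, adjusted p = 1.48e-06) and NCU16491 (-1.36 ± 0.222, adjusted p = 4.37e-07). Another 10 met it in light only, where the choice of members favours a low level before the cross, among them tam-2 (NCU05843, -1.88), lacc (NCU04528, -1.84) and gh61-15 (NCU07974, -1.30). The 4 higher ones were NCU08047, NCU12052, NCU05043 and NCU08533.

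The lists of known genes of the sexual cycle shared no gene with the 96 members. Of 7 genes of melanin and pigment formation, 6 were called higher after fertilization in ∆ve-1 dark and 4 in ∆ve-1 light, and 6 for the smaller rise in light. Of these 7, per-1, tnr-2, pig-1 and mld-1 had their highest P on day 4, with an A/B of 74, 45.7, 23.4 and 58. The rest of the list differed: pig-2 had its highest P on day 4 with an A/B of 3.07, lacc-8 on day 1 with 5.12 and T on day -1 with 0.799. Of 10 regulators of sexual development, 4 rose in ∆ve-1 dark and 3 in light, and of 9 genes of meiosis and meiotic silencing, 3 and 2. The latter had their highest P on day 6 except mei-3 (NCU02741), with day 1. Of the 8 conidial markers 1 rose and 1 fell in ∆ve-1 dark. The 5 histone and replication genes had a median log2 rise of 0.16 in ∆ve-1 dark and -0.15 in light.

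Genes of the same rule with their highest P on another day numbered 83 for day 1, 131 for day 4 and 300 for day 6, the last held at 300 of 356. In ∆ve-1 dark 97.6% of the day-1 genes, 94.8% of the 96, 90.8% of the day-4 genes and 74.3% of the day-6 genes rose after fertilization. In ∆ve-1 light these shares were 62.7%, 32.3%, 38.2% and 26.7%. A smaller rise in light was called for 48.2%, 66.7%, 69.5% and 34.7%, and a lower day-2 level in light in ∆ve-1 for 59%, 88.5%, 67.9% and 36%. The step from day 2 to day 4 in ∆ve-1 dark was called higher for 2.41%, 10.4%, 45% and 15.3%. The differences between these groups were not tested.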

How the data were processed

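Poly-A RNA of 84 samples had been sequenced as strand-specific paired-end libraries by the authors, who pooled the tissue of biological replicates at each sampling before RNA extraction, so that p-values measure the spread between libraries of pooled tissue, part of which may be technical. The authors also state that their RNA experiments used independent biological replicates. How the libraries of pooled tissue relate to these is unclear. The reads had been checked with FastQC, trimmed with fastp, aligned with STAR 2.7 to the OR74A genome (assembly NC12) and counted per gene with featureCounts. The deposited values are raw counts per gene, with all 84 columns matched to a sample. The authors' own analyses used maSigPro and DESeq2.

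CPM were computed from the raw counts. Tests used edgeR 4.0.16 (R 4.3.3, limma 3.58.1): TMM scaling, filterByExpr (9701 genes kept), 1 quasi-likelihood fit over all 28 groups, and Benjamini-Hochberg adjustment over all genes in each of 16 contrasts, 6 of them added after the data had been seen. Genes with an adjusted p below 0.05 that changed by more than 1 on the log2 scale were called. Errors are SD over 3 libraries for levels and SE for log2 changes. The SE was derived from the test, as the absolute log2 change divided by the square root of its F statistic. Counting intervals (95%, exact) and the floor of 3 counts cover counting error only. The fit was also run on simulated counts, for the rise in ∆ve-1 dark only. The changed genes were drawn from well-counted ones and the libraries were independent. The simulation thus does not cover groups without a count or deviations shared between libraries.

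The members and the gene lists were chosen with earlier results of these data known. For WT contrasts of light and dark, the rule was also applied to WT dark and WT light alone, to show which members entered through 1 condition. Named genes were those of highest A/B, highest day-2 level per kb, largest light effect or extreme rise, those in the longest run of neighbours and those at the thresholds. Gene span stood in for exon length. Members with a product name were grouped by role, and these and any others named were chosen after their values had been seen. Product names came from the identifier and name pairs of the study's tables, positions from RefSeq (NC12). Alternatives were library totals without TMM, no filter, DESeq2 1.42.0, no fold threshold, a replicate block, leaving out each replicate number and, added later, pooled days, day 0 alone as baseline and leaving out WT dark day 2 replicate 3.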

Additional observations from a re-analysis of the deposited data

Results flagged for a closer look

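Results in which an effect differed between groups by a test of the difference itself were looked at again. The rise after fertilization differed between light and dark in ∆ve-1 for 64 of the 96 members. The light effect on day 2 differed between ∆ve-1 and WT for 80 members, a description, since the WT libraries of that day took part in choosing them. In WT, whose libraries the rule used as well, the step from day 1 to day 2 differed between light and dark for 4 members, and that from day 2 to day 4 for 12.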

How the results depend on the processing

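The counts of members called in the rise in ∆ve-1 dark (90 to 92 when a replicate number was left out), in its difference between light and dark (58 to 61), in the day-2 light effect in ∆ve-1 (79 to 80) and in its difference from WT (72 to 77) stayed within 1.5 times under every alternative run. The rise in ∆ve-1 light gave 32 calls, 21 with day 0 alone as baseline, 52 with no fold threshold and 24 to 37 with a replicate number left out. With no fold threshold, 56 in place of 34 members differed between light and dark in WT before fertilization, 23 in place of 11 on day 4 and 22 in place of 14 on day 6. Leaving out a replicate number gave 4 to 14 calls for WT light against dark on day 2, 5 to 22 on day 1, 4 to 13 on day 4 and 1 to 13 on day 6. It gave 0 to 2 for the light effect on the WT step from day 1 to day 2 (edgeR, with 20 members at an unadjusted p under 0.05 with all replicates, and 5 called by DESeq2) and 1 to 12 on that from day 2 to day 4. It gave 4 to 8 and 5 to 9 for the same steps within ∆ve-1 dark, and 2 to 5 for day 2 against day 0 in ∆ve-1 light. Without WT dark day 2 replicate 3 alone, those counts were 25 for WT day 1, 18 for day 2, 14 for each of days 4 and 6, 10 and 17 for the WT steps, and 12, 10 and 7 for the last 3. The rule itself gave 87 to 112 members under its alternatives, of which 64 to 96 were among the 96, the fewest with only WT dark libraries. Of 1208 alternative values of called genes, 1126 stayed called, 82 lost the call and all kept their direction. Libraries of equal replicate number shared some of their deviations from the group means. The median correlation of deviations was 0.0635 for equal and -0.0336 for unequal numbers. It was over 0.1 for 38.8% of the equal pairs and 17.9% of the unequal ones. The main fit held no term for this. With a replicate block the counts were 91 and 31 for the rises in ∆ve-1 dark and light, 63 for their difference, and 12 and 85 for the light effect on day 2 in WT and ∆ve-1.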
